A study of Mus musculus with 4 samples.

Results

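The neurons described here are those of 6 nodose types, NG8, NG11, NG14, NG15, NG16 and NG17 in the authors' deposited annotation, each of which holds at least 10 cells in every one of the 4 libraries. They number 900 of the 1825 cells in the deposited table, and 900 of its 1704 sensory neurons. Within each type the neurons of 2 sorted libraries were set against those of 2 unsorted libraries, and the 6 types were then averaged with equal weight, so that a library rich in one type does not shift the comparison. The question was which transcripts differ between the preparations once the mixture of neuron types is held fixed.

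The study surveyed single cells of the mouse vagal ganglion complex, the fused nodose and jugular ganglia. Unsorted libraries 1 and 2 came from C57BL6 animals without a transgene, as an unselected suspension. Sorted libraries 1 and 2 came from Vglut2Cre-Tomato animals. They carry the allele Slc17a6tm2(cre)Lowl from 1 parent line and Gt(ROSA)26Sortm14(CAG-tdTomato)Hze, of a B6.Cg line, from the other, so that Cre is made from the Slc17a6 locus and turns on tdTomato under the CAG promoter at the Rosa26 locus, so a labelled cell is one in which that locus is or was active. All animals were 5 weeks old, and both kinds of ganglia went through papain, Collagenase/Dispase, a cell strainer and a density gradient before 10x 3′ v2 library construction. Sorting, genotype and whatever else differed between the preparations go together in these libraries and cannot be told apart. The labels do not give the number of animals behind a library, so the p-values measure the spread between 4 libraries, which may be technical.

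Nodose neurons carry signals from thoracic and abdominal organs to the brainstem, release glutamate loaded by the transporter that Slc17a6 encodes, and sit in the ganglion wrapped by satellite glia that make Apoe and Fabp7. Cell suspensions from such ganglia carry free RNA and debris of the wrapping cells, and a sorter selects by light signal while adding time and mechanical load. Transcripts of ribosomal proteins, respiratory chain subunits and the mitochondrial genome are among the most abundant messages of a large sensory neuron and are commonly read as signs of its metabolic state.

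The 4 libraries gave 110, 435, 196 and 159 neurons of the 6 types (unsorted 1 and 2, then sorted 1 and 2), with 7306520 to 14501380 UMIs summed per library and 10 to 122 cells in each of the 24 library-by-type profiles. The mean over types of the median UMIs per cell was 66291 and 34143 in the unsorted and 57347 and 75793 in the sorted libraries, so unsorted library 2 is the shallowest. The number of genes detected at an equal depth of 10000 UMIs per cell was 3539 and 3553 in unsorted and 3541 and 3575 in sorted neurons. Sums over 15 pan-neuronal genes (296 and 291 unsorted, 332 and 335 sorted) and over 6 nodose genes (29.2 and 30.2 unsorted, 28.4 and 29.2 sorted) were near each other in all libraries, while 7 jugular genes summed to 0.422 and 0.674 in unsorted and 1.52 and 2.97 in sorted neurons. Most of the latter is Calca, which is also a marker of these types: without it the sums were 0.240 and 0.335 against 0.344 and 0.497. One cell barcode occurs in more than 1 library.

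Levels below are UMIs per 10000 UMIs of a cell, averaged over the cells of a type and then over the 6 types. Differences are sorted minus unsorted on the scale log2(level + 1), which understates the change of low genes. Of 8605 genes tested with limma, 35 were called (0.407%) at an adjusted p under 0.05 and a difference of at least 1, 12 of them higher in sorted neurons (0.139%) and 23 lower (0.267%). At any size of difference 1968 genes passed the adjusted p (22.9%), 1173 higher (13.6%) and 795 lower (9.24%). The sorted and unsorted libraries did not overlap for 35 of the 35 called genes, against 63.3% of all genes. All 35 kept 1 direction in 6 of 6 types, where 18.8% of all genes were higher and 15.9% lower in all 6. The calls were picked from these same values, so both counts largely follow from the call rule and add no separate support. The number of calls rose to 160 with a pseudocount of 0.1 and to 344 with limma-voom on summed UMIs, and was 23 without unsorted library 2.

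**Figure D1:**
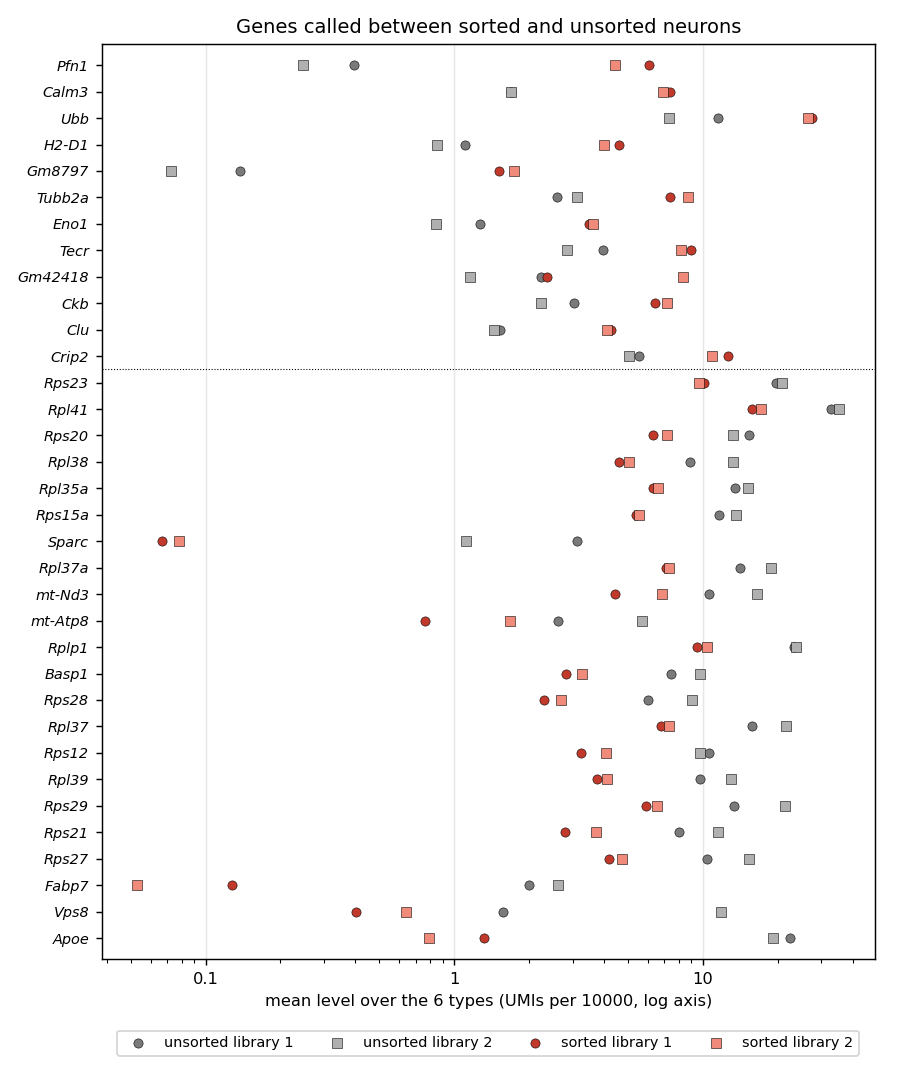
Mean level over the 6 types (UMIs per 10000, log axis) of 34 of the 35 called genes, 1 row per gene and 1 point per library, with grey for unsorted and red for sorted libraries. The 12 genes above the dotted line are higher in both sorted libraries, led by Pfn1, and the 22 below it are lower in both, with Apoe at the bottom.

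The largest rise was in Pfn1, the profilin that binds actin monomers (chr11:70651850-70654644, minus strand, GRCm38). Its level was 0.393 and 0.246 in the unsorted and 6.05 and 4.44 in the sorted libraries. Both sorted values lie far above both unsorted ones, and the difference was 2.21 (SE 0.11, adjusted p = 6.45e-11 by limma). By type it ran from 1.83 in NG17 to 2.60 in NG16. Among 21 tested genes of the actin cytoskeleton, 3 were higher and 1 lower at any size, 19.0% beside 22.9% of all genes.

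Calm3 encodes the calcium sensor calmodulin. It stood at 1.70 and 1.69 in unsorted and 7.41 and 6.91 in sorted neurons, with the 2 groups far apart (1.58, SE 0.13, adjusted p = 3.6e-08). Calm2, which encodes the same protein, was at 11.8 and 15.5 against 22.6 and 18.4 (0.58, adjusted p = 0.0307), with both sorted values above both unsorted ones.

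The polyubiquitin gene Ubb was higher in sorted neurons, and Rps27a, which encodes ubiquitin joined to a ribosomal protein, was lower. Ubb was at 11.5 and 7.33 in unsorted and 27.6 and 26.5 in sorted neurons, every sorted value being above every unsorted one (1.44, SE 0.20, adjusted p = 3.81e-05). Rps27a was at 19.9 and 21.3 against 11.4 and 10.7, with the groups apart in the other direction (-0.89, adjusted p = 0.00111).

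Gm8797 was called beside Ubb, at 0.138 and 0.0727 in unsorted and 1.52 and 1.74 in sorted neurons (1.24, SE 0.06, adjusted p = 6.45e-11). This locus (chr3:5750806-5751295, plus strand, GRCm38) holds a single ubiquitin reading frame. Of the overlapping runs of 50 bases in the last 400 bases of its transcript, 80.1% also occur in transcripts of other genes. For Ubb that share was 64.7%. Both counts thus depend on how multi-mapped reads were treated, and the Gm8797 value is uncertain. Its frame of 234 bases with the stop codon is identical to the end of the Ubb frame at 97.4% of positions, and is shown because it makes the overlap visible, with the 6 bases that differ from Ubb in capitals (GENCODE M21 transcript, GRCm38).
Gm8797: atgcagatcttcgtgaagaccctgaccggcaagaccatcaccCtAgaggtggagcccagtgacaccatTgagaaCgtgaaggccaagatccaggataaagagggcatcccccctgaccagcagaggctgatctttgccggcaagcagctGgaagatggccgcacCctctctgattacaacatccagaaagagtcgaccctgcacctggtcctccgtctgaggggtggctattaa

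H2-D1, a classical class I histocompatibility gene that presents peptides at the cell surface, was at 1.10 and 0.855 in unsorted and 4.61 and 4.01 in sorted neurons. Both sorted libraries were above both unsorted ones (1.39, SE 0.11, adjusted p = 2.05e-08), and the rise in NG17 was 1.93. Related genes did not pass: H2-K1 was at 0.569 and 0.688 against 0.764 and 0.825 (0.14, adjusted p = 0.114) and the light chain gene B2m at 1.08 and 1.20 against 1.61 and 1.40 (0.20, adjusted p = 0.0768). Of 14 tested class I and interferon-induced genes, 7 were higher at any size, beside 13.6% of all genes, and 0 lower, with a list median of 0.15. Ifi27, an interferon-induced gene on that list, was at 1.78 and 1.63 against 4.03 and 3.36 (0.79, adjusted p = 6.39e-05).

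Several enzymes of energy metabolism were higher in sorted neurons. The glycolytic enolase Eno1 was at 1.27 and 0.842 against 3.48 and 3.62 (1.13, SE 0.11, adjusted p = 5.02e-07), though 83.8% of the runs of 50 bases at its 3′ end occur in transcripts of another gene. Ckb, the brain creatine kinase that buffers ATP, went from 3.04 and 2.23 to 6.45 and 7.15 (1.04, adjusted p = 4.31e-05). In a list of 18 glycolytic and neighbouring genes, added after values had been seen, 14 were higher at any size, beside 13.6% of all genes, and 0 lower. The list median was 0.58 against 0.0047 for all genes. Gapdh (7.69 and 5.51 against 12.7 and 15.9, 0.999) and Aldoa (9.52 and 8.23 against 17.9 and 17.4, 0.91) were 2 of the 14. The groups did not overlap for either gene. Summed over the 18 genes and 1 untested member the level was 59.2 and 49.8 in unsorted and 93.6 and 96.3 in sorted neurons.

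The other called rises were spread over unlike functions. Tubb2a, a beta-tubulin of neurites, was at 2.59 and 3.13 against 7.36 and 8.72 (1.17, adjusted p = 1.3e-05), and Tecr, the reductase that ends each cycle of very long chain fatty acid elongation, at 3.97 and 2.83 against 8.99 and 8.19 (1.13, adjusted p = 4.91e-05). The secreted chaperone clusterin, Clu, was at 1.53 and 1.44 against 4.28 and 4.10 (1.02, adjusted p = 1.88e-06) and the LIM-domain gene Crip2 at 5.53 and 5.05 against 12.6 and 10.9 (1.01, adjusted p = 0.000195). In each of these genes the lower sorted library was above the higher unsorted one. Without unsorted library 2 the difference was under the size threshold for Eno1 (0.99), Tecr (0.94), Ckb (0.88) and Gm42418 (0.79), and Crip2 lost its call there and in 10 of the 21 other settings. Ckb was also lost without NG17. Clu was at 0.99 without sorted library 1 and also lost its call without NG14, without NG17 and without the cells that hold a UMI of Dcn, Lum or Col1a1. The noncoding gene Gm42418 rests on 1 library: it was at 2.22 and 1.16 in unsorted and 2.35 and 8.29 in sorted neurons, and its difference of 1.07 (adjusted p = 0.00790) became 0.36 without sorted library 2 (adjusted p = 0.263), and the call was also lost without NG17 and with no filter on low genes. Over 10% of the 3′ end was shared with another gene for 7 of the 12 called higher genes, against 5.24% of genes with a coding length, while Pfn1 and Calm3 had no such run.

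Apoe, the lipoprotein gene of satellite glia, showed the largest difference of all. Its level was 22.4 and 19.1 in unsorted and 1.32 and 0.791 in sorted neurons, with both sorted values far under both unsorted ones (-3.53, SE 0.16, adjusted p = 2.18e-11). The fall ran from -2.44 in NG15 to -4.34 in NG14. A few cells set the NG15 value: 3 cells held 73.0% of its 1281 Apoe UMIs in sorted library 1 and 89.2% of 508 in sorted library 2. In NG14 of these libraries 3 cells held 12.8% of 94 and 27.3% of 44. Such shares were not particular to NG15: in NG8 of sorted library 1, 3 cells held 79.5% of 220. In unsorted library 1, 3 cells held 85.7% of 1612 in NG8 and 82.5% of 800 in NG11. In unsorted library 2 these shares were 25.8% and 30.6%. Fabp7, a lipid-binding protein of glia, was at 1.99 and 2.61 against 0.127 and 0.0529 (-1.56, adjusted p = 5.43e-11). Sparc, a matrix protein gene of glia and endothelium, was at 3.13 and 1.11 against 0.0668 and 0.0782 (-1.11, adjusted p = 9.11e-09). Apoe, Fabp7 and Sparc were low in both sorted libraries and the groups did not overlap. Sparc was under the size threshold without unsorted library 1 (-0.93) and without type NG15 (-0.82).

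Of 25 listed satellite glia markers 19 had a level high enough to test. Of these 13 were lower at any size, beside 9.24% of all genes, and 4 were called lower, beside 0.267%. None was higher at any size, and the median was -0.44. The summed level of the listed glial markers was 48.6 and 44.6 in unsorted and 17.7 and 16.1 in sorted neurons. In the cells annotated as satellite glia, Apoe was at 904 and 688 in the unsorted libraries and 1325 in the 4 glial cells of sorted library 1. In endothelial cells of the unsorted libraries Apoe was at 7.70 and 7.01. What part glial RNA in the suspension has in these values was not tested. Of the endothelial, fibroblast, red blood cell and Schwann cell markers, 0 were called. At any size 4 of 8 tested endothelial, 4 of 6 fibroblast, 4 of 4 red blood cell and 2 of 4 Schwann and myelin markers were lower. None of them was higher at any size, and 9.24% of all genes were lower. Endothelial markers summed to 4.33 and 3.83 in unsorted and 2.80 and 2.82 in sorted neurons, and of 8 pericyte and 11 macrophage markers 0 reached the level for a test. Pericyte and smooth muscle markers summed to 0.101 and 0.0552 in unsorted and 0.0402 and 0.0295 in sorted neurons. Macrophage markers went the other way, at 0.0310 and 0.0335 against 0.127 and 0.146. Tested markers of other cells that were lower, and the low glial ones, reached that level through the unsorted libraries, so their direction is a description. Cldn5, the tight junction gene that defines endothelium, was at 0.0187 and 0.0175 in unsorted neurons and listed at 0 in both sorted libraries.

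Vps8, a subunit of an endosomal tethering complex, was called lower at -1.90 (SE 0.38, adjusted p = 0.00154), and unsorted library 2 sets that value. Its level was 1.57 and 11.9 in the unsorted libraries and 0.401 and 0.642 in the sorted ones. Unsorted library 2 stands apart from the other 3 libraries in other cells too, with 10.6 in other nodose neurons, 8.17 in jugular neurons, 1.14 in glia and 1.08 in endothelial cells against 1.58, 0.859, 0.225 and 0.0827 in unsorted library 1. Without unsorted library 2 the difference was -0.75, under the size threshold. Without either sorted library the adjusted p was 0.200 or 0.105, and with no filter on low genes it was 0.172. Basp1, a membrane-attached protein of growth cones, was lower in both sorted libraries, at 7.47 and 9.74 against 2.82 and 3.26 (-1.23, adjusted p = 1.73e-05).

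Genes of the cytosolic ribosome were lower as a group in sorted neurons. Of 78 tested ribosomal protein genes 56 were lower at any size, 15 of them called, 0 were higher, and all 78 lay below 0 with a median of -0.61. Among all genes 9.24% were lower at any size and 0.267% were called lower. Their summed level was 916 and 875 in the unsorted and 541 and 531 in the sorted libraries, so the groups were far apart. Small subunit genes had a median of -0.68 (26 of 31 lower at any size) and large subunit genes one of -0.57 (30 of 47).

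The called ribosomal genes were led by Rps27, a small subunit protein, at 10.4 and 15.3 in unsorted and 4.18 and 4.71 in sorted neurons (-1.37, SE 0.18, adjusted p = 2.35e-05). Rps29 was at 13.4 and 21.4 against 5.88 and 6.53 (-1.35, adjusted p = 7.55e-05) and Rpl39, a short protein of the exit tunnel, at 9.76 and 12.9 against 3.77 and 4.10 (-1.32, adjusted p = 1.59e-05). In all 3, unsorted library 2 was the highest and sorted library 1 the lowest. Rps21 (-1.36), Rps12 (-1.32), Rpl37 (-1.30), Rps28 (-1.28) and Rplp1 (-1.18), the last a stalk protein, were also called, with adjusted p at most 7.76e-05. The longest genes barely differed. Rpl3 was at 18.8 and 12.1 against 15.6 and 13.3 (-0.13, adjusted p = 0.667), and Rpl4 at 7.97 and 5.59 against 6.98 and 6.19 (-0.06, adjusted p = 0.830), and for both the groups overlapped.

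This gradient followed coding length, a property the choice of genes did not use. The 10 ribosomal genes with a coding length of up to 300 nucleotides had a median of -1.29, the 27 of 301 to 450 one of -0.85, the 19 of 451 to 600 one of -0.59, the 18 of 601 to 900 one of -0.42 and the 3 of 901 to 1500 one of -0.13. Across 77 ribosomal genes with a length the Spearman correlation was 0.77, and within the types it ran from 0.72 in NG15 to 0.79 in NG8. These genes share the same 4 libraries, so the correlation is a description. The same genes also sorted by length between libraries of 1 group: unsorted library 2 minus unsorted library 1 gave -0.77, and sorted library 2 minus sorted library 1 gave -0.58. In other genes above a level of 1 the correlation was -0.22 over 1720 genes, and by type it ran from -0.48 in NG16 to 0.36 in NG17. Those genes did order by length between the sorted libraries, where sorted library 2 minus sorted library 1 gave 0.66. Over 10% of the 3′ end was shared with another gene for 62 ribosomal genes, so their counts depend on how multi-mapped reads were treated, and the correlation of the difference with that share was 0.04.

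Rpl41 marks the short end of the scale. Its whole reading frame is 25 codons and a stop (gene at chr10:128548114-128549305, minus strand, GRCm38). It is printed to show how little sequence the shortest of these reading frames holds.
Rpl41: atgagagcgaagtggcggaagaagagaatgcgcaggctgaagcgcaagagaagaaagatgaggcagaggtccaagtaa
Its level was 32.8 and 35.4 in unsorted and 15.8 and 17.1 in sorted neurons, both sorted values being below both unsorted ones (-1.02, SE 0.17, adjusted p = 0.000289). The call was lost without unsorted library 2, without sorted library 1, without NG15 or NG17, without the cells that hold a UMI of Dcn, Lum or Col1a1, and with limma-voom.

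**Figure D2:**
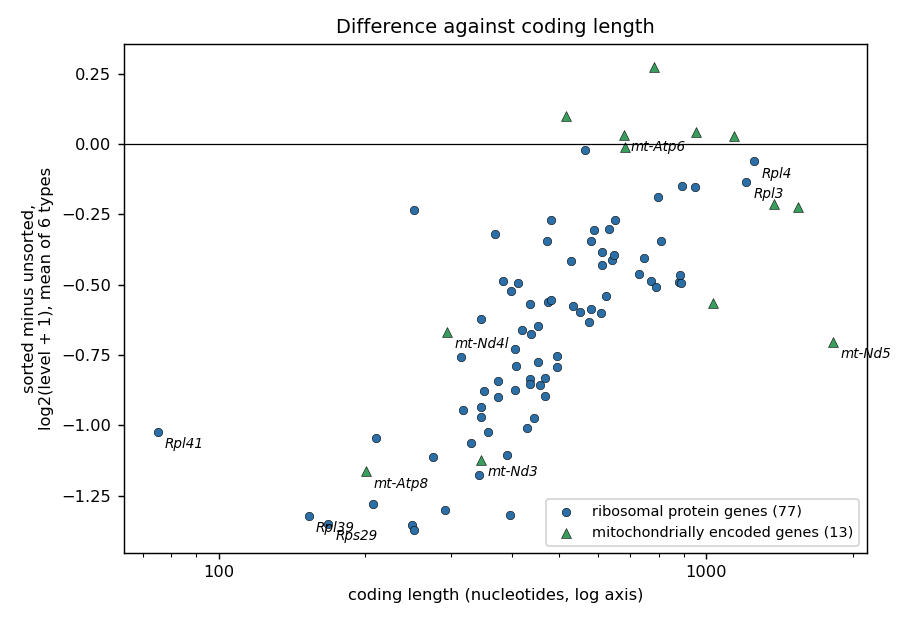
Sorted minus unsorted difference (log2(level + 1), mean of 6 types) against coding length (nucleotides, log axis) for 77 ribosomal protein genes (circles) and 13 mitochondrially encoded genes (triangles). Most circles climb with length, from a median of -1.29 up to 300 nucleotides to -0.13 above 900, and the triangles of mt-Atp8 and mt-Nd3 lie among the short ribosomal genes.

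Among the 13 protein genes of the mitochondrial genome the differences were uneven. The lowest were mt-Atp8, a short subunit of the ATP synthase, at 2.62 and 5.68 in unsorted and 0.760 and 1.68 in sorted neurons (-1.16, SE 0.20, adjusted p = 0.000391), and mt-Nd3, a complex I subunit, at 10.5 and 16.5 against 4.43 and 6.86 (-1.12, adjusted p = 0.000682). For both genes the 2 groups did not overlap and unsorted library 2 was the highest. Both calls were lost without unsorted library 2 (-0.71 and -0.83), without sorted library 1 (-0.88 and -0.86) and with no filter on low genes. In all, 5 of the 13 genes were lower and 0 higher at any size, with a median of -0.21 that turned to 0.040 without sorted library 1. The summed level was 918 and 822 in unsorted and 741 and 946 in sorted neurons, where the groups overlap.

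The mitochondrial genome is copied as long transcripts that are cut at tRNAs, and 2 pairs of reading frames stay joined. The first pair is mt-Atp8 and mt-Atp6, which overlap by 43 bases, and the second is mt-Nd4l and mt-Nd4, which overlap by 7. Each pair is 1 message, so the printed upstream frames, whose overlap with the next frame is in capitals, lie on the same RNA as their partners (GENCODE M21 transcripts, chrM:7766-7969 and chrM:9877-10173, plus strand, GRCm38).
mt-Atp8: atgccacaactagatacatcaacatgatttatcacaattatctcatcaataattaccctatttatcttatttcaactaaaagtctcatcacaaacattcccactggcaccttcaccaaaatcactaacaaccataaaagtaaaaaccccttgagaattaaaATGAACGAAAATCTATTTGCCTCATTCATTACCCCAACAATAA
mt-Nd4l: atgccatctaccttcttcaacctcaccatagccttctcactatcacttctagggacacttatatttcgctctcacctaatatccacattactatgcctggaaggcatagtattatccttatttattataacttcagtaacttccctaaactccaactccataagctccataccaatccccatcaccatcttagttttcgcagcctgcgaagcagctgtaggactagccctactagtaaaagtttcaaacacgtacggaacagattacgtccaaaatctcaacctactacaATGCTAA
The partners differed in value. While mt-Atp8 was lower, mt-Atp6 stood at 180 and 159 in unsorted and 163 and 187 in sorted neurons, with overlapping groups (0.03, adjusted p = 0.846). In the second pair mt-Nd4l was at 6.49 and 9.97 against 3.44 and 6.29 (-0.67, adjusted p = 0.0196), and mt-Nd4 at 74.6 and 63.8 against 49.9 and 70.6 (-0.21, adjusted p = 0.373). A read from a shared message can be counted for either gene of a pair. The level of the upstream member is a small part of that of its partner in every library. The runs of 50 bases at the 3′ end that occur in transcripts of another gene also differ within a pair. They were 0% for mt-Atp8 and 99.1% for mt-Atp6, and 98.8% for mt-Nd4l and 0% for mt-Nd4. These counts thus depend on how multi-mapped reads were treated. The most abundant neighbour downstream, mt-Co3, was at 139 and 115 against 135 and 170 and did not pass (0.27, adjusted p = 0.131).

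Nuclear genes of the respiratory chain were mostly above 0, and their median was above 0 in 5 of the 6 types. Of 77 tested, 32 were higher and 2 lower at any size with 0 called, beside 13.6% and 9.24% of all genes higher and lower. Their median was 0.28. Ndufa4, a subunit of cytochrome oxidase, was at 6.81 and 7.08 against 14.4 and 11.4 (0.83, adjusted p = 0.00206), and Cox6a1, another, at 6.45 and 6.45 against 12.1 and 11.3 (0.77, adjusted p = 0.00231). The 2 lower genes encode short subunits: Cox7c was at 13.5 and 16.1 against 8.52 and 8.44 (-0.71, adjusted p = 0.00624) and Atp5e at 6.97 and 6.55 against 4.15 and 4.26 (-0.59, adjusted p = 0.00639). Here too the difference rose with coding length (Spearman 0.48 over 76 genes), though not at every step. The median was -0.09 in the 19 genes of up to 300 nucleotides and 0.30 in the 24 of 301 to 450. It was 0.13 in the 13 of 451 to 600 and 0.44 in the 7 of 901 to 1500. By type that correlation ran from 0.14 in NG16 to 0.78 in NG17. These genes also ordered by length between the unsorted libraries, where unsorted library 2 minus unsorted library 1 gave -0.53. Sorted library 2 minus sorted library 1 gave 0.05.

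Genes of the proteasome, which degrades ubiquitin-tagged proteins, were mostly above 0. Of 36 tested subunit genes 24 were higher at any size, 0 lower and 0 called, with 35 above 0 and a median of 0.29. For this and the next lists, 13.6% of all genes were higher and 9.24% lower at any size. The catalytic subunit gene Psmb5 was at 1.44 and 1.09 against 3.16 and 2.83 (0.82, adjusted p = 2e-05), and its neighbour Psmb2 at 0.772 and 0.680 against 2.26 and 1.81 (0.81, adjusted p = 2.3e-06). Among 16 heat shock and chaperone genes 4 were higher and 1 lower, with Hspb1, a small heat shock protein of sensory neurons, at 1.70 and 1.76 against 4.13 and 4.25 (0.91, adjusted p = 1.39e-05) and Dnajb1 at 1.51 and 1.47 against 0.826 and 0.858 (-0.43, adjusted p = 0.000443). Of 8 lysosomal protease genes, a list added after values had been seen, 6 were higher and 0 lower, led by legumain, Lgmn (1.43 and 1.29 against 3.59 and 3.46, 0.91).

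Genes that respond within minutes to dissociation did not rise together. Of 21 tested immediate early and dissociation genes 1 was higher and 3 lower at any size, with a median of -0.01. Egr1, an activity-induced transcription factor, was at 2.22 and 2.83 against 1.29 and 1.48 (-0.54, SE 0.10, adjusted p = 0.00116), and Nr4a1, another, at 0.457 and 0.373 against 0.154 and 0.139 (-0.29, adjusted p = 2.96e-05). Both were lower in both sorted libraries. Fos (4.37 and 5.21 against 4.69 and 3.92, -0.17, adjusted p = 0.404), Junb (2.07 and 2.17 against 2.87 and 2.33, 0.18, adjusted p = 0.241) and the injury gene Atf3 (0.991 and 1.51 against 1.86 and 1.5, 0.22, adjusted p = 0.127) did not pass. By type Junb rose in NG8 (0.48, adjusted p = 0.0357), NG11 (0.51, adjusted p = 0.0305) and NG14 (0.60, adjusted p = 0.00499) and fell in NG15 (-0.77, adjusted p = 0.0208), and Atf3 rose in NG8 (0.54, adjusted p = 0.0217) and NG14 (0.33, adjusted p = 0.0400), all within-type limma tests.

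Genes of sensory function passed at about the rate of all genes, 13 of 67 in 4 lists (19.4%) beside 22.9%. Of 12 sodium channel genes 0 were higher and 1 lower at any size, of 24 potassium and HCN channel genes 3 and 4, of 13 TRP and mechanosensitive channel genes 2 and 0, and of 18 receptor genes 0 and 3. The lower receptors were Cckar, the cholecystokinin receptor (1.58 and 1.87 against 0.616 and 0.886, -0.49, adjusted p = 0.000227), and the purinergic receptors P2ry1 (-0.29) and P2rx3 (-0.18). Of 9 peptide genes 6 were higher, beside 13.6% of all genes, and 0 lower, with a median of 0.28. The 6 were Gal, which encodes galanin (0.341 and 0.417 against 1.98 and 1.70, 0.60, adjusted p = 5.76e-07), Calca, the gene of CGRP (0.183 and 0.339 against 1.17 and 2.48, 0.65, adjusted p = 1.19e-07), Cartpt (0.75), Nmb (0.31), Adcyap1 (0.28) and Calcb (0.12). For Calca sorted library 2 was the highest in NG16, at 13.3 against 2.97 in sorted library 1. Of 11 markers of the 6 types, which include Gal, Calca and Adcyap1 as the 3 that were higher, 1 was lower, Gda, a guanine deaminase gene (1.55 and 1.77 against 0.924 and 1.26, -0.22, adjusted p = 0.0202). The serotonin receptor genes Htr3a (5.84 and 6.20 against 7.14 and 7.60, adjusted p = 0.489) and Htr3b (0.660 and 0.741 against 0.955 and 1.26, adjusted p = 0.0505) did not pass.

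**Figure D3:**
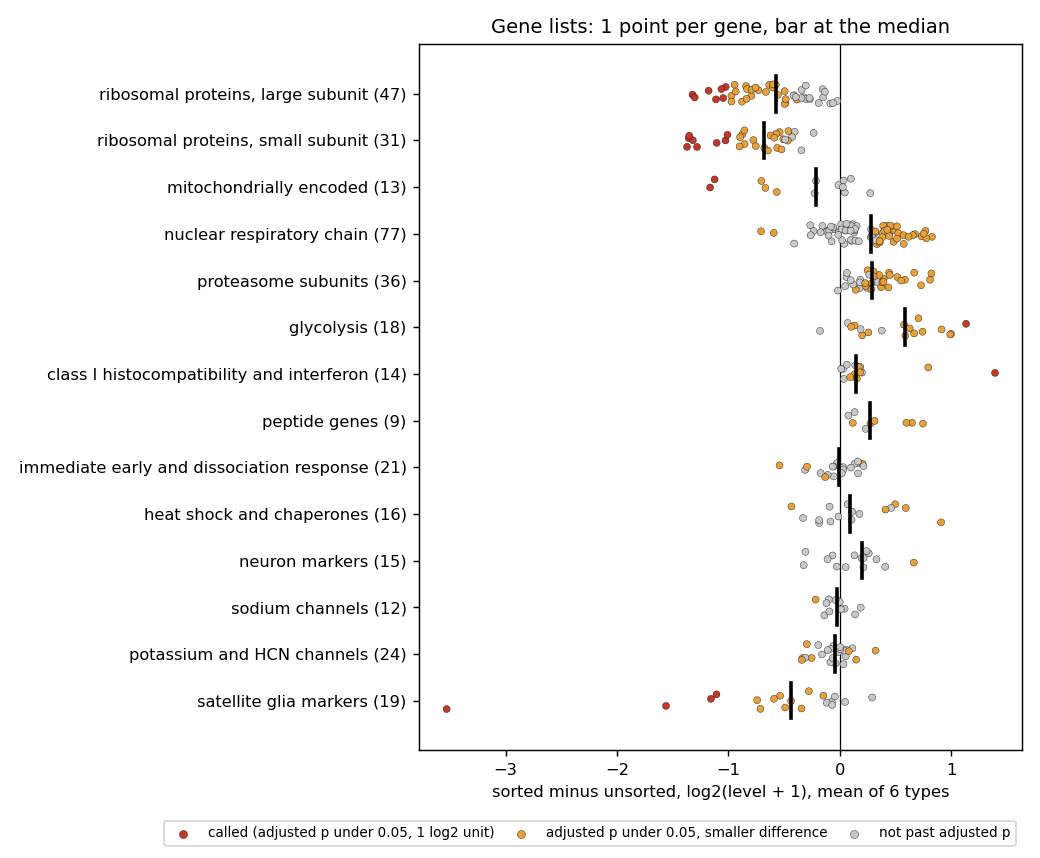
Sorted minus unsorted difference (log2(level + 1), mean of 6 types) of every tested gene in 14 lists, with the number of genes in brackets, a black bar at the list median, red for called genes and orange for an adjusted p under 0.05. All points of both ribosomal lists lie left of 0, most proteasome and glycolysis points lie right of it, and the channel and immediate early lists centre near 0.

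The loci used to mark the cells were looked at next. Slc17a6 itself (chr7:51622006-51671119, plus strand) was at 2.69 and 2.98 in unsorted and 2.42 and 2.81 in sorted neurons, and the groups overlapped (-0.10, adjusted p = 0.574). The noncoding host gene of the tdTomato insertion, Gt(ROSA)26Sor (chr6:113067428-113077333, minus strand), was at 0.386 and 0.331 against 1.32 and 1.14, higher in both sorted libraries (0.72, SE 0.07, adjusted p = 2.22e-07). Within 5 Mb on either side 3 of 18 tested genes around Slc17a6 (16.7%) and 9 of 37 around Gt(ROSA)26Sor (24.3%) passed at any size and 0 were called, beside 22.9% of all genes. Xist, the RNA of X inactivation, was at 1.89 and 1.87 against 1.33 and 1.05 (-0.38, adjusted p = 0.00428), and the Y-linked Eif2s3y at 0.0654 and 0.123 against 0.151 and 0.181, so both were read in all 4 libraries.

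Within single types the fits of 2 libraries against 2 called 23 of 8471 genes in NG8 (0.272%), 28 of 8478 in NG11 (0.33%), 52 of 8524 in NG14 (0.61%), 52 of 8336 in NG15 (0.624%), 17 of 8283 in NG16 (0.205%) and 116 of 8191 in NG17 (1.42%). By direction, NG8 had 13 higher (0.153%) and 10 lower (0.118%), NG11 13 (0.153%) and 15 (0.177%), NG14 30 (0.352%) and 22 (0.258%), NG15 13 (0.156%) and 39 (0.468%), NG16 7 (0.0845%) and 10 (0.121%), and NG17 35 (0.427%) and 81 (0.989%). Apoe, Calm3, Fabp7, H2-D1, Pfn1 and Rps21 were called in all 6 types, and 94 genes in 1 type. The 288 calls in all became 1545 with a pseudocount of 0.1 and 105 without a filter on low genes. Of the 116 calls in NG17, 67 were in that type alone and 53 were ribosomal protein genes, all lower.

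Ribosomal protein genes had a median of -0.31 in NG8, -0.51 in NG11, -0.61 in NG14, -0.80 in NG15, -0.35 in NG16 and -1.16 in NG17. In NG17 their summed level was 948 and 807 in the unsorted and 369 and 264 in the sorted libraries, and in NG16 it was 1032 and 978 against 691 and 793. The sorted libraries hold 15 and 10 NG17 cells, with median UMIs of 36107 and 119572, and the part of this small number and uneven depth in the values was not tested. Nuclear respiratory chain genes, with medians of 0.25 to 0.35 in the other 5 types, had -0.30 in NG17. Ndufa4 shows it: its difference was 0.90 to 1.19 in those types and -0.29 in NG17. Proteasome genes were at 0.19 to 0.39 in all 6 types.

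**Figure D4:**
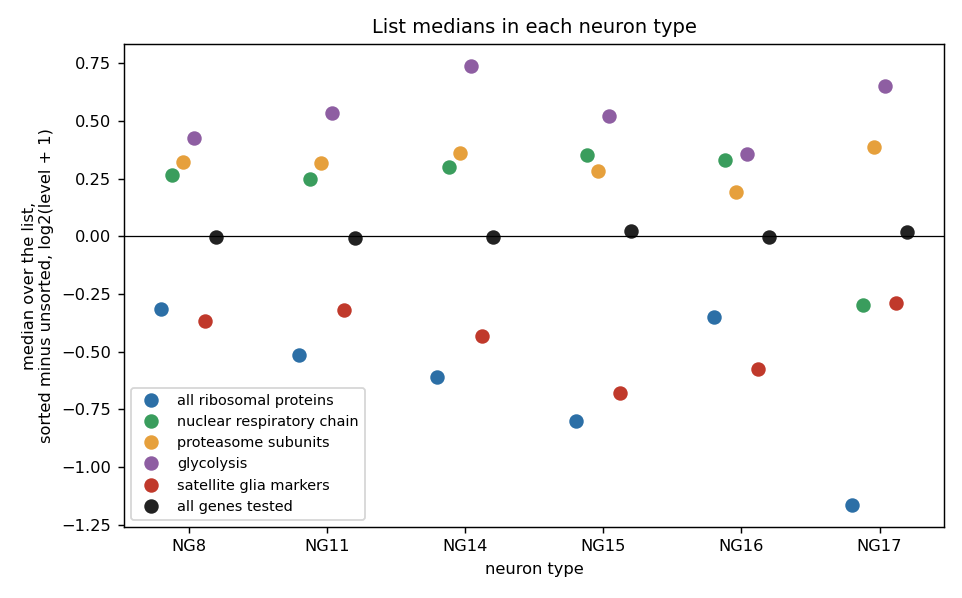
Median sorted minus unsorted difference (log2(level + 1)) of 5 gene lists and of all genes tested, in each of the 6 neuron types. Ribosomal protein medians run from -0.31 in NG8 to -1.16 in NG17, and the nuclear respiratory chain median is above 0 in 5 types and -0.30 in NG17.

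A limma F test on the 24 profiles asked for which genes the difference varies between types. It passed 1082 of 8605 genes (12.6%), and 795 of these had types on both sides of 0. NG17 was the type farthest from the others for 68.5% of them, against 38.6% of all genes tested. The count depends on the libraries: it was 176 to 454 when any 1 library was left out, 176 without sorted library 2 and 179 without unsorted library 1, and 210 after thinning each cell to 10000 UMIs. Of the 35 called genes 23 passed too, so their size, though not their direction, varied between types.

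The 5 genes with the smallest F p-values each differed most in 1 to 3 types on the scale log2(level + 1). That scale understates changes at a low level, so the F test does not separate a type's response from its level. Gal in NG14 was at 1.20 and 1.61 in the unsorted and 8.76 and 6.75 in the sorted libraries, and in NG11 at 0.48 and 0.60 against 2.36 and 2.72, and in NG16, from a low level, at 0.031 and 0.047 against 0.273 and 0.278 (limma adjusted p within NG16 = 0.00147). In NG8 it was at 0.25 and 0.21 against 0.27 and 0.30 and did not pass (adjusted p = 0.560). The F test gave Gal an adjusted p of 2.2e-08. Ptk7, a receptor-like pseudokinase of planar polarity signalling, was near 0 in unsorted neurons. In NG15 it had 2 UMIs in 18 cells and 3 in 59 cells of the unsorted libraries, against 190 in 43 and 139 in 27 cells of the sorted ones. NG17 gave levels of 0.50 and 0.57 in the sorted libraries and 0.01 in both unsorted ones, and NG16 gave 0.23 and 0.15 against 0.02 and 0.01 (limma adjusted p within NG16 = 0.00778). In NG8 Ptk7 was listed at 0 throughout (F test adjusted p = 4.41e-08). Outside the 6 types it was at 0.203 and 0.0982 in the sorted and 0.00113 and 0.00141 in the unsorted libraries in other nodose neurons. In jugular neurons it was at 0.126 and 0.108 against 0 and 0.00232. Ptk7 reached the level for the F test through the sorted libraries. So did Ptk7 and Gal for the test within NG16, and the direction in these cases is a description.

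Kcnt2, a sodium-activated potassium channel, was higher in NG17, at 0.16 and 0.15 in the unsorted against 0.75 and 0.95 in the sorted libraries, and under 0.11 in all other profiles (F test adjusted p = 5.8e-07). Ifitm3, an interferon-induced membrane protein that is also abundant in endothelium (36.2 and 31.1 in the endothelial cells of the unsorted libraries), was lower in NG15, at 1.38 and 1.03 against 0.07 and 0.11 (adjusted p = 5.8e-07). A few cells carry much of this: 3 cells held 60.4% of the 53 Ifitm3 UMIs in NG15 of unsorted library 1 and 62.0% of the 71 in unsorted library 2, and in the sorted libraries 3 cells held 38.1% of 21 and 73.3% of 30. Myl1, a myosin light chain gene, was higher in NG11, at 0.03 and 0.04 against 3.47 and 2.02, and in NG8, at 0.94 and 0.40 against 2.51 and 1.90, but lower in NG15, at 1.33 and 1.07 against 0.69 and 0.53 (adjusted p = 8.53e-07). For each of these the 2 groups of libraries did not overlap within the named type. Kcnt2 reached the level for the F test through the sorted libraries and Ifitm3 through the unsorted ones, so their direction is a description.

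**Figure D5:**
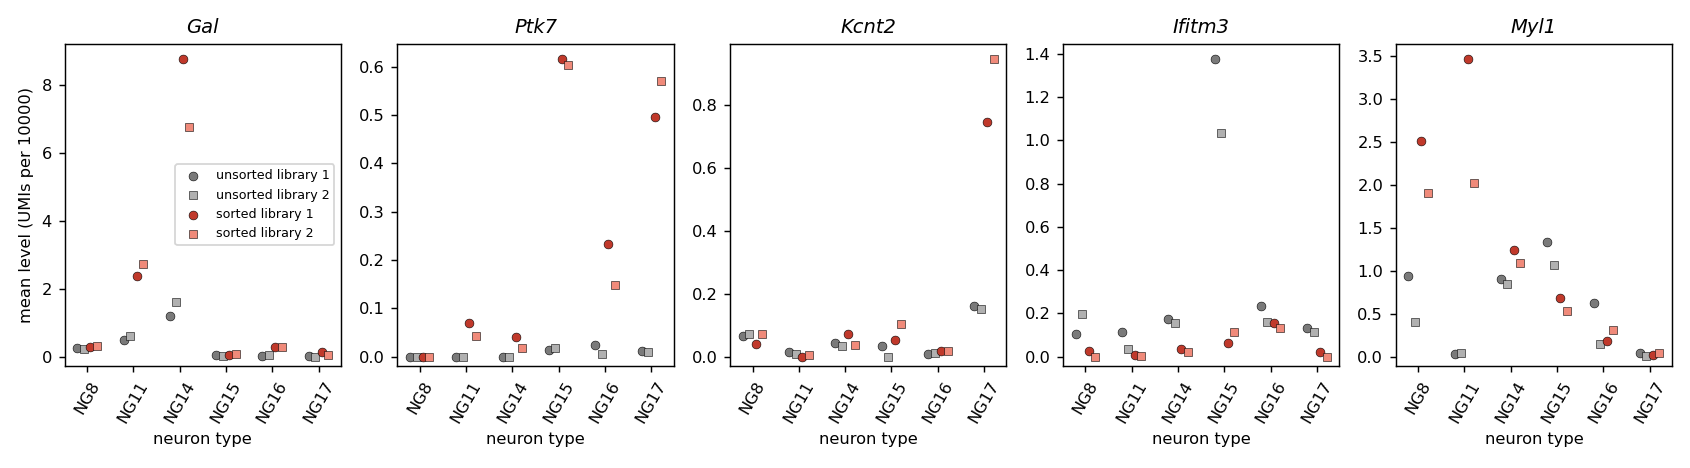
Mean level (UMIs per 10000) of Gal, Ptk7, Kcnt2, Ifitm3 and Myl1 in each of the 6 types, 1 point per library, grey for unsorted and red for sorted libraries. Sorted points stand above unsorted ones in NG14 and NG11 for Gal, in NG15, NG16 and NG17 for Ptk7 and in NG17 for Kcnt2, and below them in NG15 for Ifitm3.

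NG15 of the unsorted libraries also held transcripts of other cells. Fibroblast markers summed to 60.6 and 6.45 there against 0.768 and 0.876 in the sorted libraries, and to 2.13 or less in the other 5 types. Dcn, the defining fibroblast gene, had 434 and 154 UMIs in the unsorted NG15 cells, of which 99.5% and 99.4% came from 3 cells. Red blood cell markers summed to 67.2 in unsorted library 2 and 0.245 or less in the other libraries. The medians of the fibroblast and red blood cell lists were -1.61 and -1.88 in NG15, against -0.04 to 0.01 in the other 5 types, and their part in the other NG15 values was not tested. Without the 124 cells that hold a UMI of Dcn, Lum or Col1a1 the matched comparison called 30 genes, and Sparc was at -0.91.

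Sorted and unsorted libraries were also compared in neurons outside the 6 types. Those neurons were pooled per library and not matched by type, so a shift in their mixture of types can enter the values. The 559 other nodose neurons gave 44 calls of 8711 genes (0.505%), 18 higher (0.207%) and 26 lower (0.298%). The 245 jugular neurons gave 37 of 8673 (0.427%), 16 higher (0.184%) and 21 lower (0.242%). A direct limma test of the matched difference against that in other nodose neurons called 0 genes (1134 at an unadjusted p under 0.05), with 25 at any size (0.287%), and against jugular neurons 0 (1032 unadjusted), with 13 at any size (0.15%). With a pseudocount of 0.1 both tests together gave 24 calls, and without sorted library 2 they gave 5. Pfn1 was at 0.475 and 0.260 against 5.05 and 4.26 in other nodose neurons, and at 0.858 and 0.276 against 9.72 and 5.86 in jugular neurons. In satellite glia Pfn1 was at 0.753 and 0.248 in the unsorted libraries and at 4.84 in the 4 glial cells of sorted library 1, and H2-D1 was at 3.58 and 2.88 against 18.8 in the same cells. These values have no replicate in glia.

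Glial genes were lower in sorted jugular neurons too, from a lower starting level. Fabp7 was at 0.763 and 0.937 in the unsorted and 0.127 and 0.00916 in the sorted libraries there, and Sparc at 0.504 and 0.362 against 0.0802 and 0.00455. The test of the difference passed for both (adjusted p = 0.0236 and 0.0471), but a gene at such a level cannot fall as far on the log2(level + 1) scale as it did in the 6 types, so the test does not compare the size of the falls. For Apoe the difference from jugular neurons, -1.17, did not pass (adjusted p = 0.121). Against other nodose neurons the genes that passed at any size included mitochondrial proteins such as Cox6a1 and Ndufs5. Their sorted minus unsorted difference was larger in the 6 types by 0.51 and 0.56 (limma adjusted p of 0.0432 and 0.0432). The part of the unmatched mixture of types in the other nodose neurons was not tested.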

How the data were processed

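Single-cell 3′ libraries of mouse vagal ganglia were analysed from the authors' deposited table of 1825 cells and 17289 genes, with the authors' deposited annotation of cluster, library and mitochondrial fraction per cell. The reads were processed with Cell Ranger 2.1.1 and Seurat on mm10, per the submitters' processing notes. The deposited values are natural log values of 1 plus UMIs per 10000, and UMI counts were read back from them (100% whole within 0.01). The deposited annotation also gives UMI counts per cell, which differ from those read back by a median of 5. The series text states 1896 cells, of which 71 are not analysed here. No doublet caller was run, and how the authors treated doublets is not given in the sources used here. Leaving out the cells with the highest 5% of UMI counts was an alternative.

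Linear values were averaged per library and type, put on the scale log2(mean + 1), averaged over the 6 types and compared with limma 3.58.1 (R 4.3.3; trended empirical Bayes, Benjamini-Hochberg adjustment) for genes with a mean above 0.1. An F test on the 24 profiles, with library and type as terms, tested variation between types. An exact permutation test of 2 libraries against 2 cannot go below p = 0.333, so none is given for single values. Named genes are the 10 highest and 10 lowest called genes, up to 3 called members of each list, the genes with the 5 smallest F p-values and a fixed set of markers. Some items are not reported here. All other named genes were chosen after their values were seen. Members and gene lists were chosen with earlier results of these data known, and the glycolysis, tubulin, lysosomal protease and peroxiredoxin lists after the values here. Gene positions and reading frames are from GENCODE M21 (GRCm38, which is mm10), with a transcript for 97.2% of tested genes. Methods were tested on simulated data. Alternatives were the pseudocount, filter, normalization, matching, thinning, limma-voom and leaving out each library or type.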

Additional observations from a re-analysis of the deposited data

Results flagged for a closer look

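The sorted minus unsorted difference varied between the 6 types for 1082 genes in the limma F test, and the genes named here were picked out because that test, or the test against other neurons, gave an adjusted p under 0.05. The smallest adjusted p-values were those of the peptide gene Gal (2.2e-08), the pseudokinase gene Ptk7 (4.41e-08), the potassium channel gene Kcnt2 (5.8e-07), Ifitm3 (5.8e-07) and Myl1 (8.53e-07). Among markers of other cells and the loci checked, they were 0.000339 for Dcn, 0.00323 for Apoe, 0.0181 for Slc17a6 and 0.0202 for Xist. Ptk7 and Kcnt2 reached the level for this test through the sorted libraries and Ifitm3 through the unsorted ones. A few NG15 cells held most UMIs of Dcn in the unsorted and of Apoe in the sorted libraries.

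Immediate early and injury genes varied as well, with adjusted p of 0.00151 for Junb, 0.00203 for Egr1, 0.0048 for Fos and 0.0246 for Atf3. Junb, Egr1 and Fos fell in NG15, by 0.77, 1.11 and 1.08 on the log2 scale, while Junb rose in NG8 (0.48), NG11 (0.51) and NG14 (0.60) and Atf3 in NG8 (0.54) and NG14 (0.33). Sensory and type genes gave 0.00756 for Gda, 0.00916 for Htr3a, 0.0107 for Adcyap1 and 0.0371 for Htr3b.

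The called higher genes kept 1 direction in all 6 types while their size varied for Pfn1 (0.00231), Tecr (0.00302), H2-D1 (0.00375), Ckb (0.00971), Gm42418 (0.0163), Eno1 (0.0262), Clu (0.0271) and Calm3 (0.0371). The ribosomal genes did so for Rps29 (0.00274), Rpl37 (0.00323), Rpl39 (0.00412), Rps27 (0.00629), Rps28 (0.00842), Rps21 (0.014), Rps12 (0.0166) and Rplp1 (0.0411). Of the respiratory chain genes Cox7c gave 0.000919 and Ndufa4 0.0163.

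With the other neurons pooled and not matched by type, the difference in the 6 types departed from that in other nodose neurons for 25 genes. It departed from that in jugular neurons for 13. Fabp7 (0.0236) and Sparc (0.0471) were among the latter, where their lower level in unsorted jugular neurons limits how far they can fall on the scale used.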

How the results depend on the processing

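The 35 matched calls (12 higher, 23 lower) became 160 (59 and 101) with a pseudocount of 0.1 and 344 (196 and 148) with limma-voom on summed UMIs, and stayed within 28 to 42 under the other settings that kept all 4 libraries. Leaving out 1 library gave 23 to 45 calls, 8 to 19 higher and 15 to 26 lower. The loss was largest without unsorted library 2, where 14 calls ended: Rpl37a, Eno1, Rps15a, Rpl41, Tecr, Rpl38, Rps23, Ckb, Crip2, Vps8, Rpl35a, Gm42418, mt-Atp8 and mt-Nd3. Without NG17, 28 calls were made. The cause was not tested.

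The 288 calls within types became 1545 with a pseudocount of 0.1, 105 without a filter, and 274 to 342 without 1 library. The 1082 genes that varied between types became 718 without a filter, 210 after thinning to 10000 UMIs and 176 to 454 without 1 library. The 0 genes that departed from other neurons by at least 1 log2 unit became 24 with a pseudocount of 0.1, 4 after thinning and 0 to 5 without 1 library. The median of the mitochondrially encoded genes, -0.21, was -0.45 to 0.040 without 1 library and turned positive without sorted library 1. Leaving out a library leaves 1 in its group, which is then assumed to vary like the other group. No paired analysis was possible because the labels give the libraries no replicate numbers that sorted and unsorted libraries share. Depth limits low genes. The median UMIs per cell were lowest in unsorted library 2 (34143), and the UMIs summed over the 6 types were lowest in unsorted library 1 (7306520).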
